A study of Mus musculus with 20 samples.

Results

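The genes described here encode subunits of Polycomb repressive complex 1 (PRC1): the chromobox genes Cbx2, Cbx6, Cbx7 and Cbx8, the Polycomb group ring finger genes Bmi1, Pcgf2 and Pcgf5, and the ubiquitin ligase genes Ring1 and Rnf2. They are 9 of the 21631 protein-coding genes of the mouse annotation and were taken by name. Binding of Suz12 was read over 11943 regions, made by merging every Suz12 peak of 8 peak lists that overlapped by at least 1 bp. A region was assigned to a gene when it lay within 1 kb of either annotated end, and 5 regions met this rule, 1 each at Cbx2, Cbx8, Bmi1, Pcgf5 and Ring1. Cbx6, Cbx7, Pcgf2 and Rnf2 had none.

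PRC1 and PRC2 are the main Polycomb complexes, which keep developmental genes silent. PRC2, of which Suz12 is a required subunit, methylates lysine 27 of histone H3, and a Cbx protein of canonical PRC1 binds that mark. Every PRC1 complex holds Ring1 or Rnf2 together with a Pcgf protein, and this pair places ubiquitin on histone H2A. In mouse embryonic stem cells Cbx7 and Rnf2 are known as the prevailing Cbx and Ring subunits, while Cbx2 and Cbx8 are known to take over as cells differentiate.

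All libraries came from E14-WT cells, a wild type mouse embryonic stem cell strain grown in serum medium with leukemia inhibitory factor. The cells were treated with DRB (100 µM), which inhibits the CDK9 kinase that polymerase II needs for elongation, or with triptolide (10 µM), which blocks initiation. The 4 groups were cells of the DRB series at 0 h and 12 h and cells of the triptolide series at 0 h and 9 h, with 2 Suz12 ChIP-seq libraries each, and the study asks how Polycomb binding changes once transcription is silenced. The replicates are described as biological, but no label names separate cultures, so p-values measure the spread between these libraries. The other 12 samples of the series were not analysed here.

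Between 1323927 and 7340017 reads per library were counted over the regions. Levels are given as CPM, reads in a region per 1e6 reads over all regions, with edgeR's TMM scaling, so that every rise or fall is relative to the other regions. Replicates differed by more than counting noise, at 2.47 to 8.65 times the chi-square that counting alone gives. Every untreated library ran in lane 1 or 4 and every treated one in lane 3 or 6, and lane and treatment cannot be told apart. Fewer cells with Suz12 at a gene and less Suz12 per cell cannot be told apart either. Of 5 stem cell genes, Pou5f1, Nanog, Zfp42 and Esrrb had a Suz12 peak in no list and Sox2 had one in the treated lists alone. ChIP-seq measures no expression, so this describes binding and not the cell type.

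The promoters of 4 members are shown because they cover the patterns found. Ring1 had a Suz12 peak in treated lists alone, and Rnf2, its paralogue, had none. Pcgf2 had the pattern of Ring1, with fewer CpG dinucleotides in its window than the others shown. Bmi1 had a peak before and after treatment. Each run is the 300 bp RefSeq window (GRCm38.p6) from 250 bases before to 50 bases after a start site, 5′ to 3′ on the gene's own strand, with every CG dinucleotide in capitals. The windows are chr17:34024631-34024930 (minus strand) for Ring1, chr1:151500942-151501241 (minus) for Rnf2, chr11:97699599-97699898 (minus) for Pcgf2 and chr2:18676768-18677067 (plus) for Bmi1.
Ring1: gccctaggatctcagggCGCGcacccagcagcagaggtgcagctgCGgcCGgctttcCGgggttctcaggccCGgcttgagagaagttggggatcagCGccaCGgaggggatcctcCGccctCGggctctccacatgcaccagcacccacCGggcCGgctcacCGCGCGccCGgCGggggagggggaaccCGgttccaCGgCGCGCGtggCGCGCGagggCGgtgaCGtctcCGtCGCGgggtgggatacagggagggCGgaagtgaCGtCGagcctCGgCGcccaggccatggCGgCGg
Rnf2: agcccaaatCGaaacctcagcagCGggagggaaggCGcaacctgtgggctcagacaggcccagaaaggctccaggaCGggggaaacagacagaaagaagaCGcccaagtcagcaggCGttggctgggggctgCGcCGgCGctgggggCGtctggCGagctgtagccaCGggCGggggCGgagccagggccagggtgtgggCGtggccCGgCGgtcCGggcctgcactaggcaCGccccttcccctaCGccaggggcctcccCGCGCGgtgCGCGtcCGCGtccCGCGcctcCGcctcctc
Pcgf2: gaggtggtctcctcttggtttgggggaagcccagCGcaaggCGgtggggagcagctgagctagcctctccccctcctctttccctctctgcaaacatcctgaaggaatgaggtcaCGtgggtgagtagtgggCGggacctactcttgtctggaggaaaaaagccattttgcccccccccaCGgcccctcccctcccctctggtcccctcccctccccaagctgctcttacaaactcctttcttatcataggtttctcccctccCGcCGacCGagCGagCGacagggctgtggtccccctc
Bmi1: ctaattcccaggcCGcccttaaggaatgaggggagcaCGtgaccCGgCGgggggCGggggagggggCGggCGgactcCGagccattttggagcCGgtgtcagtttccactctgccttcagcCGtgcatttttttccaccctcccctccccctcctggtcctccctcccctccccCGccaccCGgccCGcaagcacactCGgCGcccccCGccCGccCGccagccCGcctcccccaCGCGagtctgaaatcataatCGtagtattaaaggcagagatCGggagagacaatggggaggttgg

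The motif searched was CG, which reads the same on both strands, and 94.7% of the 32619 windows of the table hold at least 1. The table held windows of 8 of the 9 members, all but Cbx2. Ring1 had 37 CG dinucleotides in its window and Rnf2 had 30, and 5.62% and 11.8% of all windows hold at least as many. Cbx7 had 33, the Pcgf5 windows at its 2 start sites with a Suz12 region 34 and 35, Cbx6 31, Cbx8 24 and Bmi1 23. The Pcgf2 window had 10, with 43.8% of all windows at or above that count, and a Pcgf5 window at a start site without a region had 5. Across the table the median was 7, against 22 for windows over regions with a peak in all 8 lists, 25 for windows over regions with peaks in the 4 treated lists alone, and 5 for windows over no region. Of all windows with at least 30 CG dinucleotides, as many as Rnf2 has, 68.5% overlapped a Suz12 region, and of those with at least 33, the Cbx7 count, 71.8% did. Cbx6, Cbx7 and Rnf2 thus stood without a region among windows most of which had one.

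**Figure D1:**
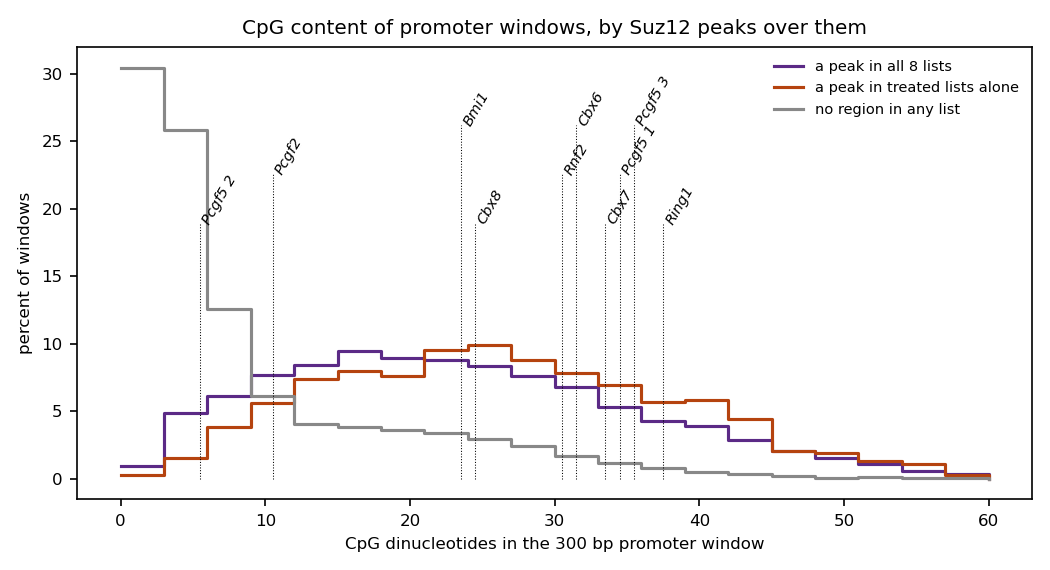
CpG dinucleotides per 300 bp promoter window (horizontal axis) against the percent of windows in each class (vertical axis), for windows over regions present in all 8 lists, over regions of the treated lists alone, and over none, with the members' windows marked. Members without a region (Cbx6 at 31, Cbx7 at 33, Rnf2 at 30) lie among the CpG-rich windows, and Pcgf2, at 10, lies lower.

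By the peak lists, 4 members, Cbx2, Cbx8, Bmi1 and Pcgf5, had a Suz12 peak at an end in all 8 lists, a class that holds 13.9% of all protein-coding genes. Ring1 had peaks in every treated list and in none from untreated cells, which 4.03% of genes do. Cbx6, Cbx7, Pcgf2 and Rnf2 had a peak at an end in no list, as did 63.2% of genes. In counts averaged over both inhibitors, edgeR's quasi-likelihood test with Benjamini-Hochberg adjustment over all 11943 regions (threshold 0.05) placed Ring1 higher and Cbx8, Bmi1 and Pcgf5 lower, and Cbx2 did not pass. So 4 of 5 member regions changed, where 56.9% of all regions did. Of the 5, 1 rose, where 28.0% of all regions and 10.3% of regions with a peak in all 8 lists rose, and 3 fell, where 28.9% of all regions and 59.1% of regions with a peak in all 8 lists fell. The 1 that rose, Ring1, had peaks in the 4 treated lists alone. Of all regions with that pattern 87.3% rose and 0 fell, so its rise was usual for its class. The median change of the 5 was −0.28 on the log2 scale, against 0.05 over all regions and −0.38 over those with a peak in all 8 lists. Under DRB alone 3 of 5 changed (37.3% of all regions), 1 up (18.0%) and 2 down (19.2%). Under triptolide alone 4 of 5 changed (41.2%), 1 up (19.3%) and 3 down (21.9%). The direction of the smaller changes depends on the scaling: with counts scaled to the regions present in all 8 lists (kept-region scaling), which moves the median of all regions to 0.39, Ring1 and Cbx2 rose and Cbx8 alone fell. Over all regions that scaling took the share of higher calls from 49.2% to 80.8%.

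**Figure D2:**
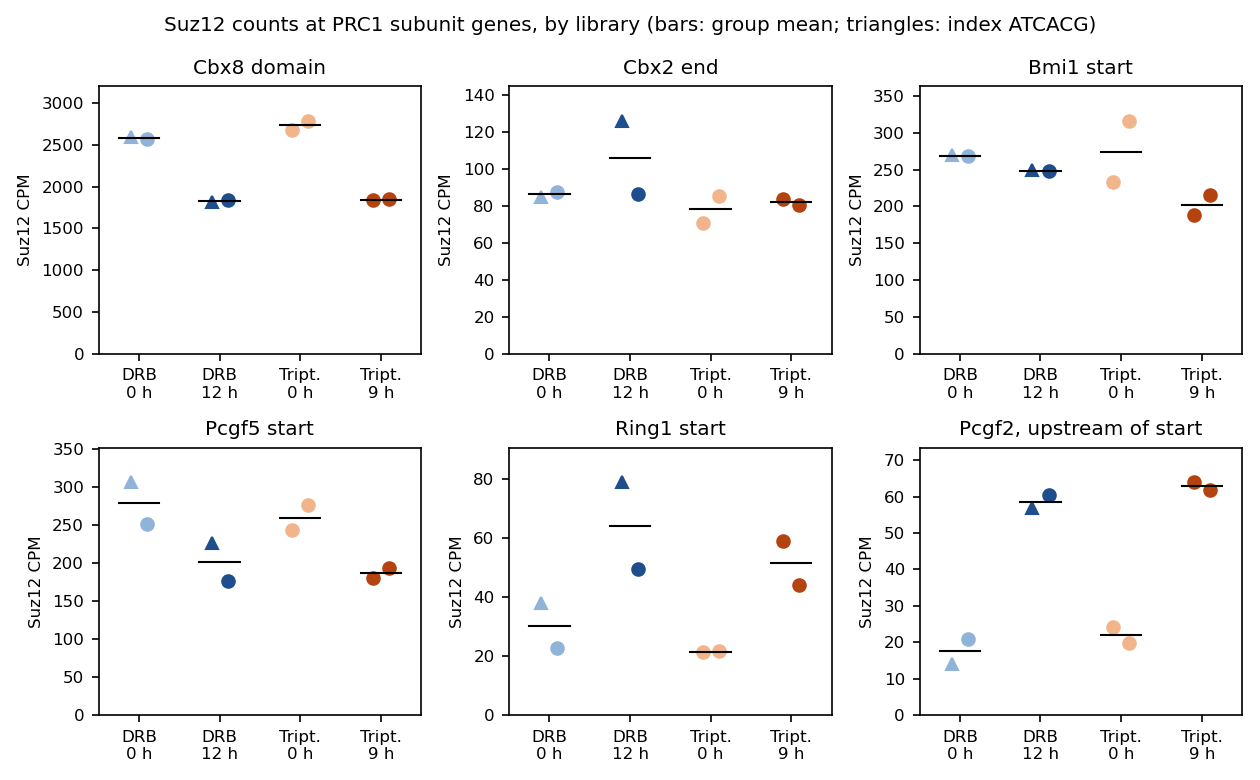
Suz12 CPM (vertical axis, from 0) in each of the 8 libraries at the member regions, by group, with bars at the group mean and triangles for libraries of index ATCACG. Treated libraries lie above all untreated ones at Ring1 and Pcgf2, below them at Cbx8 and Pcgf5, and the groups overlap at Cbx2 and Bmi1.

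The Ring genes encode the catalytic subunits. Ring1 (chromosome 17, 34020792 to 34024680, GRCm38) took up Suz12 over a region from 34024210 to 34025832 that contains its start site and also lies at an end of H2-Ke6, so the counts cannot be assigned to Ring1 alone. Its CPM was 37.8 and 22.6 in the DRB 0 h libraries (index ATCACG and TGACCA, in this order throughout), and 78.8 and 49.5 at 12 h. In the triptolide libraries (replicates 1 and 2) it was 21.2 and 21.7 at 0 h, and 59.0 and 44.1 at 9 h. Each treated library exceeded each untreated one, as at 24.4% of all regions. The group means were 30.2 ± 10.8 and 64.2 ± 20.7 under DRB and 21.4 ± 0.311 and 51.6 ± 10.5 under triptolide (SD, n = 2 each). Ring1 rose by a log2 change of 1.16 ± 0.28 under DRB (SE, edgeR adjusted p = 0.00784), of 1.27 ± 0.28 under triptolide (adjusted p = 0.00375) and of 1.21 ± 0.20 over both (adjusted p = 2.72e-04). The region entered the union through treated lists alone, so part of this rise comes with the choice of region. Without the DRB 0 h library of index TGACCA the DRB change was 0.73 and no longer passed in edgeR (adjusted p = 0.164). With kept-region scaling the change over both was 1.55.

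Peaks at Ring1 were 1311 to 1623 bp wide in the 4 treated lists. A neighbouring region from 34026744 to 34028196, at H2-Ke6 and Slc39a7 and more than 1 kb beyond Ring1, was also in the 4 treated lists alone. Its CPM was 19.7 and 19.8 at DRB 0 h and 47.2 and 43.7 at 12 h, and 20.6 and 21.3 at triptolide 0 h and 40.0 and 45.6 at 9 h. It rose by 1.11 ± 0.14 over both inhibitors (SE, edgeR adjusted p = 3.67e-05), and this region too was found through treated lists alone, which favours a rise. Rnf2 (chromosome 1, 151469398 to 151500991), the paralogue of Ring1, had no region at an end or within the gene, and the nearest region lay 69642 bp from its start site. No counts were read there, so its level and any change were not measured.

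The Pcgf proteins pair with Ring1 or Rnf2 and set which PRC1 complex forms. Pcgf2 (chromosome 11, 97688821 to 97702434), also called Mel18, encodes, like Bmi1, a Pcgf protein of canonical PRC1. Its region, from 97699699 to 97701419, lies inside the annotated gene, 1015 bp short of the upper annotated end and so just outside the 1 kb rule. The RefSeq start site at 97699648 is 51 bp from it, and its window, printed above, overlaps the region. No untreated list and all 4 treated lists had a peak there, of 1281 to 1611 bp. CPM was 13.97 and 20.9 at DRB 0 h and 56.8 and 60.4 at 12 h, and 24.1 and 19.9 at triptolide 0 h and 63.9 and 61.8 at 9 h. The treated libraries lay between 56.8 and 63.9 and all stood above the untreated ones. The group means were 17.5 ± 4.93 and 58.6 ± 2.55 under DRB and 22.0 ± 2.99 and 62.9 ± 1.46 under triptolide (SD, n = 2 each).

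Pcgf2 had the largest change of the 13 regions within member genes or within 2.5 kb of them, with a rise of 1.65 ± 0.21 under DRB (SE, edgeR adjusted p = 2.45e-04) and of 1.51 ± 0.20 under triptolide (adjusted p = 2.67e-04). Over both inhibitors it was 1.58 ± 0.14 (SE, edgeR adjusted p = 5.83e-06), above that of 99.1% of all regions. Among regions with peaks in the treated lists alone, the class of the Pcgf2 region, it was above that of 93.1%. As at Ring1, the region was found through treated lists, and part of the rise comes with that. Every scaling kept the direction, at 1.78 with the sum of counts and 1.92 with kept-region scaling. When genes were assigned by RefSeq start sites or within 2.5 kb of an end, Pcgf2 joined Ring1 as a member with peaks in the treated lists alone.

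Bmi1 (chromosome 2, 18677018 to 18686629), a proto-oncogene and repressor of the Cdkn2a locus, carried Suz12 before treatment. Its start site lies in a region from 18675472 to 18678965 that is shared with Commd3. CPM was 269.5 and 268 at DRB 0 h and 249 and 248 at 12 h, and 232.5 and 316 at triptolide 0 h and 189 and 216 at 9 h. The untreated triptolide libraries differed more from each other than any other group here, and the treated and untreated libraries overlap. The DRB change was −0.11 ± 0.15 (SE, edgeR adjusted p = 0.564). Under triptolide it fell by 0.44 ± 0.15 (SE, edgeR adjusted p = 0.0308), and over both by 0.28 ± 0.10 (adjusted p = 0.0382). The triptolide call was lost without triptolide 0 h replicate 2 (−0.20, edgeR adjusted p = 0.344), 9 h replicate 1 (adjusted p = 0.256) or 9 h replicate 2 (adjusted p = 0.0869), with the sum of counts (adjusted p = 0.246) and with kept-region scaling (adjusted p = 0.774). The call over both was lost in 5 of 8 fits that left out a library, with a change of −0.16 (adjusted p = 0.205) without triptolide 0 h replicate 2, and kept-region scaling gave 0.07 (adjusted p = 0.517). The other losses came without triptolide 9 h replicate 1 or 2 (adjusted p = 0.162 and 0.0571) and without the DRB 0 h library ATCACG or TGACCA (adjusted p = 0.0756 and 0.0882).

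A further Suz12 region of the Bmi1 locus fell more clearly than the start region. It lay inside the gene, from 18679621 to 18681825, and had CPM of 80.5 and 90.8 at DRB 0 h and 38.8 and 57.4 at 12 h, and of 93.2 and 99.6 at triptolide 0 h and 61.8 and 50.8 at 9 h. Each treated library was under each untreated one, and it fell by 0.79 ± 0.14 over both inhibitors (SE, edgeR adjusted p = 3.83e-04), and by 0.45 with kept-region scaling (adjusted p = 0.0251). A region beyond the upper end, from 18688269 to 18691626, lies at an end of Gm46725. This region was the highest of the locus, with CPM of 464 and 420 at DRB 0 h and 391 and 332 at 12 h, and 462 and 520 at triptolide 0 h and 330 and 331 at 9 h. It fell by 0.43 ± 0.09 over both (SE, edgeR adjusted p = 0.00109), a call that kept-region scaling ended (−0.09, adjusted p = 0.259). A narrow region of 501 bp between the start region and the region inside the gene, a peak in 1 untreated list, had 4 to 56 reads per library and fell by 1.14 ± 0.33 (SE, edgeR adjusted p = 0.00993), a call lost without the DRB 0 h library TGACCA and with kept-region scaling (adjusted p = 0.0630). Its treated and untreated libraries overlapped. The narrow region was found through that untreated list alone, which favours a fall.

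Pcgf5 (chromosome 19, 36348329 to 36460970) encodes a subunit of variant PRC1, which lacks Cbx proteins. The region from 36347230 to 36349881 contains its outermost start site and had a peak in all 8 lists. CPM was 307 and 252 at DRB 0 h and 227 and 176 at 12 h, and 244 and 276 at triptolide 0 h and 180 and 194 at 9 h. Every treated library was below every untreated one. Pcgf5 fell by 0.47 ± 0.15 under DRB (SE, edgeR adjusted p = 0.0306), by 0.47 ± 0.15 under triptolide (adjusted p = 0.0237) and by 0.47 ± 0.11 over both (adjusted p = 0.00250). With kept-region scaling the change was −0.13 and did not pass (edgeR adjusted p = 0.223). The DRB call was lost without the 0 h library ATCACG (−0.33, edgeR adjusted p = 0.180) or the 12 h library TGACCA (−0.31, adjusted p = 0.134). The triptolide call was lost without 0 h replicate 2 (edgeR adjusted p = 0.149), 9 h replicate 1 (adjusted p = 0.172) or 9 h replicate 2 (adjusted p = 0.101).

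A second Pcgf5 region, from 36409250 to 36410712, lies at an inner RefSeq start site at 36409748, with peaks in 2 untreated and all 4 treated lists. Its CPM was 33.7 and 40.7 at DRB 0 h and 48.4 and 48.2 at 12 h, and 36.7 and 34.7 at triptolide 0 h and 35.5 and 37.5 at 9 h. The change over both was 0.19 ± 0.12 (SE, edgeR adjusted p = 0.211), and 0.53 with kept-region scaling, where it passed (adjusted p = 0.00639). The outermost and inner start regions of Pcgf5 therefore had changes of opposite sign under TMM scaling, and that difference was not tested.

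Cbx8 and Cbx2 are neighbours on chromosome 11, and each encodes a Cbx protein that binds methylated lysine 27. The Cbx8 region, from 119033826 to 119060338, is 26513 bp long and the widest but 1 of all regions. It contains the whole of Cbx8 (119036303 to 119040913), runs 19425 bp beyond its upper end and starts 2551 bp beyond the upper end of Cbx2. CPM was 2602 and 2572 at DRB 0 h and 1818 and 1836 at 12 h, and 2683 and 2791 at triptolide 0 h and 1839 and 1848 at 9 h. The treated libraries lay close together and all stood below the untreated ones, as at 25.2% of all regions. Cbx8 fell by 0.50 ± 0.08 under DRB (SE, edgeR adjusted p = 0.00119), by 0.57 ± 0.08 under triptolide (adjusted p = 5.02e-04) and by 0.54 ± 0.06 over both (adjusted p = 2.28e-05). Kept-region scaling gave a smaller fall, of 0.19 (edgeR adjusted p = 0.00332), and the sum of counts a fall of 0.33. No fit that left out a library lost these calls.

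The length under peaks at Cbx8 was read separately from the counts. Peaks covered 21176 to 26500 bp of the region in the untreated lists and 21814 to 25027 bp in the treated ones, in 1 to 6 and 2 to 6 pieces. Covered length overlapped between the groups, while the counts did not.

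Cbx2 (119023019 to 119031275) had a peak in all 8 lists over its lower end, in a region from 119021918 to 119024312. CPM was 84.6 and 87.8 at DRB 0 h and 126 and 86.2 at 12 h, and 70.5 and 85.5 at triptolide 0 h and 83.8 and 80.5 at 9 h. The treated library of index ATCACG stood apart at 126, and the other treated libraries lay among the untreated ones. The change was 0.27 ± 0.19 under DRB (SE, edgeR adjusted p = 0.268), 0.08 ± 0.18 under triptolide (adjusted p = 0.761) and 0.18 ± 0.13 over both (adjusted p = 0.271). Within index ATCACG the DRB log2 ratio was 0.57 and within TGACCA −0.03. Cbx2 passed as higher over both with kept-region scaling (0.52, edgeR adjusted p = 0.00445), with the sum of counts (0.37, adjusted p = 0.0240) and without the DRB 12 h library TGACCA (0.31, adjusted p = 0.0238). Peaks there were 1272 to 1875 bp wide in untreated and 1352 to 2245 bp wide in treated lists. A second region inside Cbx2, from 119028037 to 119029089, was a peak in 1 treated list alone and changed by 0.28 ± 0.19 (SE, edgeR adjusted p = 0.218).

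Cbx6 (chromosome 15, 79823898 to 79834333) and Cbx7 (79915804 to 79971143) lie near each other on chromosome 15, and neither had a Suz12 region at an end. The region nearest to the Cbx7 start site lay 48926 bp away. Inside Cbx6, 5229 bp from its start site, a weak region from 79828216 to 79829104 had a peak in 2 treated lists and in no untreated one. Its CPM was 12.3 and 12.7 at DRB 0 h and 17.6 and 20.1 at 12 h, and 14.3 and 10.5 at triptolide 0 h and 19.7 and 17.7 at 9 h. The treated libraries were all above the untreated ones, and the region rose by 0.59 ± 0.18 over both inhibitors (SE, edgeR adjusted p = 0.0153). The region was found through treated lists, and part of the rise comes with that. Neither inhibitor passed alone (edgeR adjusted p = 0.0923 under DRB and 0.0848 under triptolide). The call over both was lost with DESeq2 (adjusted p = 0.0628) and, in edgeR, without the DRB 0 h library TGACCA (adjusted p = 0.0586), triptolide 0 h replicate 2 (adjusted p = 0.0619) or triptolide 9 h replicate 1 (adjusted p = 0.0627).

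**Figure D3:**
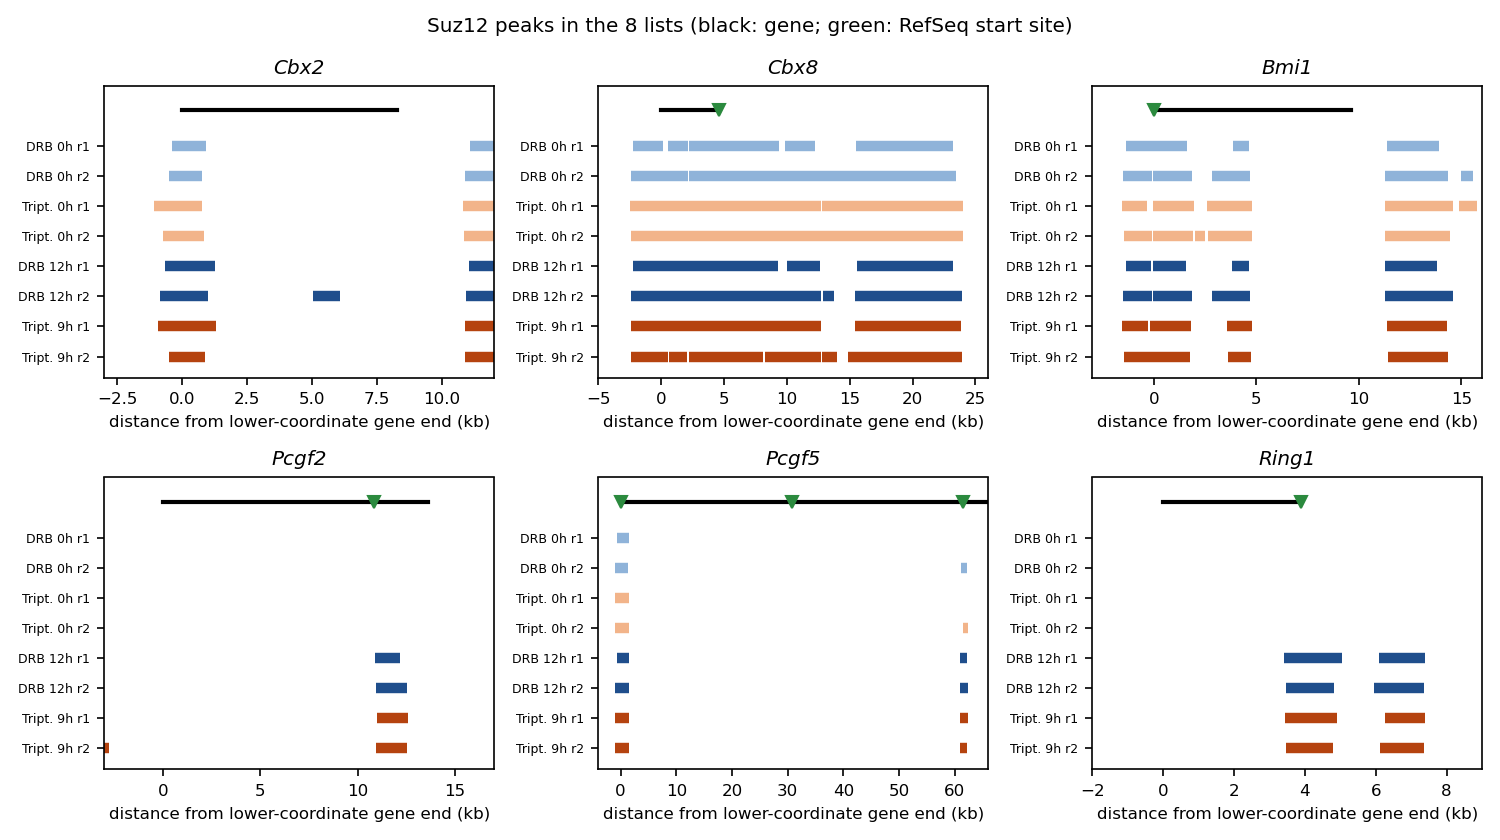
Suz12 peaks in each of the 8 lists (rows) around the member genes, against distance in kb from the lower-coordinate gene end, with the gene in black and RefSeq start sites in green. Peaks at Ring1 and Pcgf2 appear in the 4 treated rows alone, and the Cbx8 domain spans more than the gene in every row.

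Per length, the members differed in how much Suz12 they carried before treatment. Mean untreated density was 103 ± 10.9 CPM per kb at Pcgf5, 100.7 ± 3.70 at Cbx8, 85.3 ± 10.8 at Bmi1, 36.6 ± 3.49 at Cbx2, 15.9 ± 4.94 at Ring1 and 12.2 ± 2.62 at Pcgf2 (SD, n = 4 each). Pcgf5 and Cbx8 did not differ beyond their spread, nor did Ring1 and Pcgf2. After treatment the values were 74.5 ± 8.89 at Pcgf5, 70.8 ± 9.09 at Bmi1, 69.4 ± 0.474 at Cbx8, 41.9 ± 9.53 at Cbx2, 37.7 ± 1.85 at Pcgf2 and 35.7 ± 9.41 at Ring1 (SD, n = 4 each). The ranges of mean ± SD of the 3 highest members then overlapped, and so did those of the 3 lowest. Ring1 and Pcgf2 were found through treated lists alone, so their low untreated densities come in part with the choice of region.

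**Figure D4:**
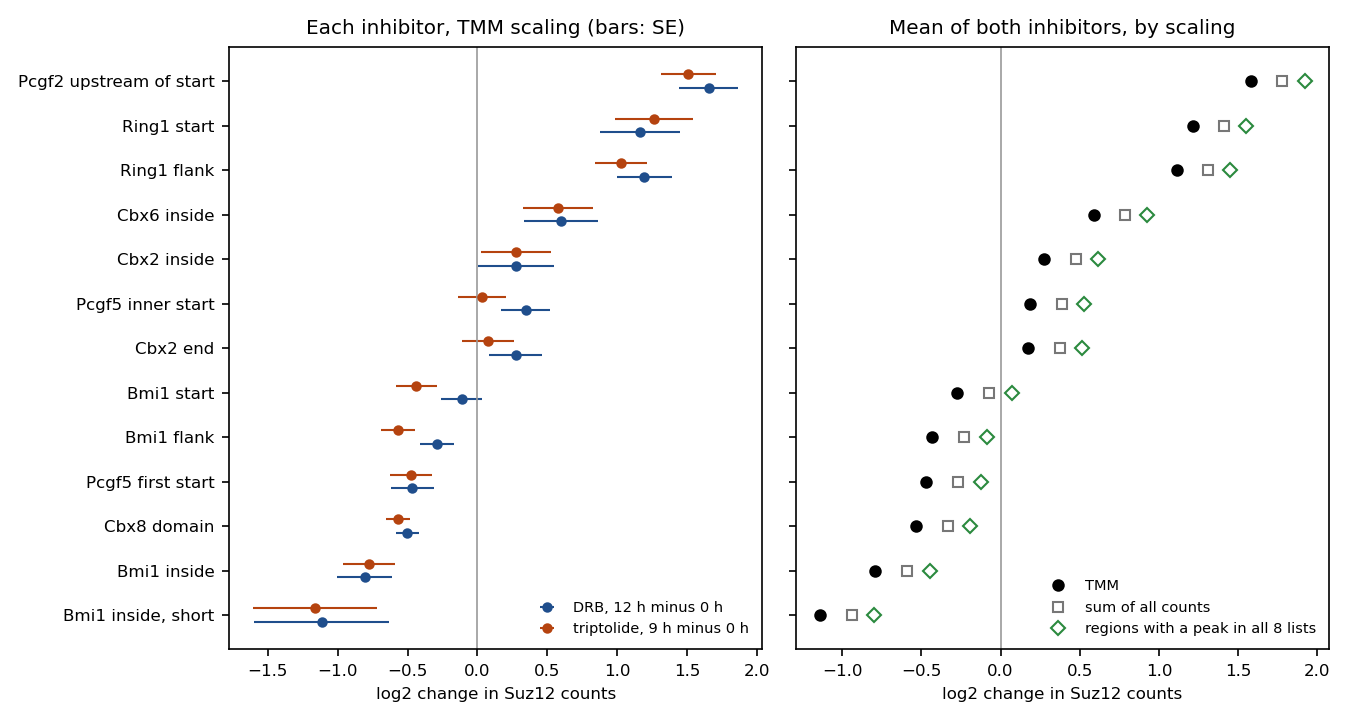
Log2 change in Suz12 counts at each member region, on the left for each inhibitor with TMM scaling and bars of 1 SE, and on the right for the mean of both inhibitors under each scaling. Pcgf2 and Ring1 lie above 0 and Cbx8 below 0 under every scaling shown, while Bmi1 lies at −0.28 with TMM and at 0.07 with kept-region scaling.

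DRB and triptolide gave changes that did not differ detectably at the members. In the edgeR test of the triptolide change minus the DRB change, 0 of the 6 regions (the 5 at an end, and Pcgf2) passed and none had an unadjusted p under 0.05. The difference was −0.07 at Cbx8 (95% interval −0.33 to 0.19), −0.01 at Pcgf5 (−0.47 to 0.46) and −0.15 at Pcgf2 (−0.77 to 0.48). It was 0.10 at Ring1 (−0.76 to 0.97), −0.19 at Cbx2 (−0.77 to 0.38) and −0.32 at Bmi1 (−0.77 to 0.13). Intervals of this width leave room for a difference larger than the change itself at Cbx2 and Bmi1 and of similar size at Pcgf5. Over all regions edgeR called 2 (0.0167%), with 193 at an unadjusted p under 0.05, and DESeq2 called 3, with 91.

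Ratios between member regions within a library do not depend on scaling. For each of the 15 pairs of the 6 regions, the log2 ratio of raw counts was compared between the 4 treated and 4 untreated libraries by a two-sided exact permutation test, whose 70 arrangements allow no p under 0.0286. The arrangements crossed the DRB and triptolide series, so no series was held to its own 0 h libraries. Within each series fewer arrangements exist, and no p under 0.05 could be reached. For 11 pairs the groups did not overlap and p was 0.0286 (exact permutation, adjusted p = 0.0390 over the 15 pairs). The 15 pairs reuse 6 regions and are not independent. In TMM-scaled CPM, single regions often separated by treatment, upward at 24.4% of all regions and downward at 25.2%. How often pairs of other regions separate was not tested, so the count of 11 allows no conclusion about PRC1 genes in particular. Of the 11 pairs, 8 include Ring1 or Pcgf2, whose regions entered through treated lists alone, so a shift in their favour comes in part with the choice of region. No conclusion is drawn from the p-values of these 8 pairs. The Cbx2 to Cbx8 ratio, between neighbouring genes, went from −5.02 ± 0.16 to −4.31 ± 0.31 over both series (SD, n = 4 each, exact permutation p = 0.0286). The shift was 0.77 under DRB and 0.65 under triptolide, and neither was tested alone. Every treated library had more Cbx2 reads per Cbx8 read than every untreated one. Among the 8 pairs affected by the choice of region, the ratio of Cbx8 to Pcgf2 shifted by −2.17 and that of Cbx8 to Ring1 by −1.70. The 4 pairs that did not pass were Cbx8 and Bmi1 (−0.27, exact permutation adjusted p = 0.143), Cbx8 and Pcgf5 (−0.06, adjusted p = 0.571), Bmi1 and Pcgf5 (adjusted p = 0.231), and Pcgf2 and Ring1 (0.47, adjusted p = 0.398). This comparison was added after the data had been seen.

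**Figure D5:**
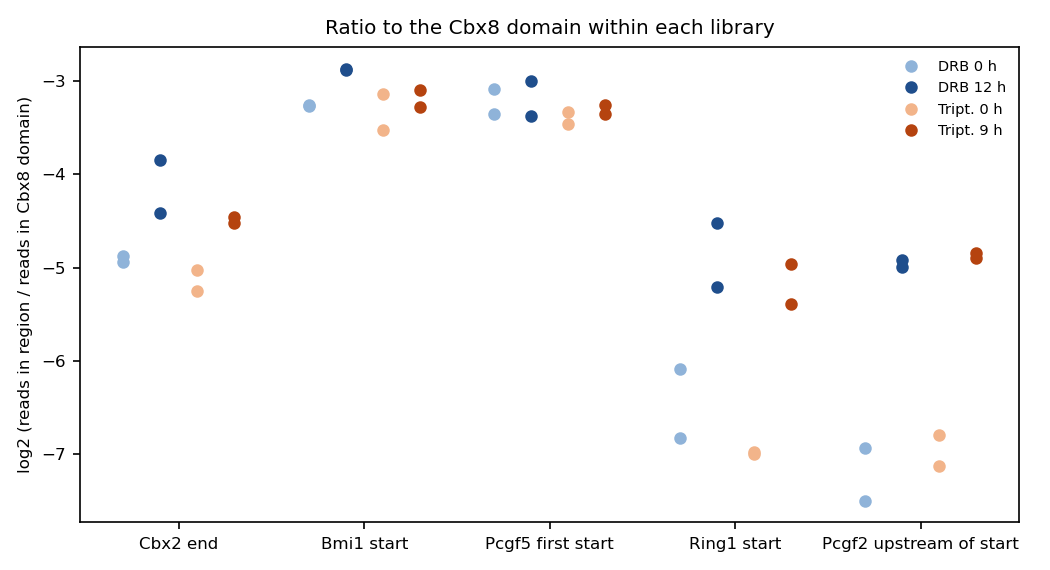
Log2 ratio of the reads in each member region to the reads in the Cbx8 domain of the same library (vertical axis), for untreated and treated libraries. The ratio is higher in every treated library than in every untreated one for Cbx2, Pcgf2 and Ring1, and the groups overlap for Bmi1 and Pcgf5. The regions of Pcgf2 and Ring1 entered through treated lists alone, which favours a higher ratio.

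The other PRC1 genes were read the same way. Of 7 further genes of canonical PRC1, 5 had a region at an end, of which 3 rose over both inhibitors in edgeR and 2 in DESeq2. Of all regions 28.0% rose in edgeR and 23.0% in DESeq2. The 3 that rose encode Polyhomeotic or related proteins: Phc1 by 0.90 ± 0.27 (SE, edgeR adjusted p = 0.0136), Scmh1 by 0.60 ± 0.17 (adjusted p = 0.00890) and Phc3 by 0.53 ± 0.17 (adjusted p = 0.0199, and 0.0745 with DESeq2). Counts at Phc1 were low, with group means from 4.35 to 10.1 CPM. Phc2, with peaks in all 8 lists, had −0.08 ± 0.14 (SE).

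Of 22 genes of variant PRC1, 12 had a region at an end, of which 7 were called higher and 0 lower (28.0% and 28.9% of all regions), and their median was 0.59. Scaled to the kept regions, 11 were higher and 0 lower, where 47.4% of all regions were higher. Tfdp1 rose by 1.46 ± 0.17 (SE, edgeR adjusted p = 3.25e-05) and Mga by 1.42 ± 0.16 (adjusted p = 2.44e-05), both DNA-binding partners of the Pcgf6 complex with peaks in the treated lists alone. Kdm2b, the CpG-binding subunit of the Pcgf1 complex, rose by 1.17 ± 0.12 (SE, edgeR adjusted p = 1.40e-05). The smallest values were 0.00 ± 0.15 at Yaf2 and 0.06 ± 0.22 at Pcgf1 (SE). Of 12 PRC2 genes, 6 had a region, and 4 rose and 0 fell in edgeR, where 28.0% and 28.9% of all regions did. With DESeq2 2 rose, where 23.0% of all regions did. Of the 12 genes, 1 had a peak in all 8 lists. Cbx1, Cbx3 and Cbx5, chromobox genes of heterochromatin that are not PRC1 subunits, had no region at an end. Genes of these lists often entered through peaks in treated lists, which favours a rise.

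By the distance between centred log2 CPM profiles over the 8 libraries, the genes with the pattern most like each member were sought. Nearest to Cbx8 were Rasgrf1 (0.0681) and Nkx1-2 (0.0732), and nearest to Pcgf5 were Ntn4 (0.127) and Kcnc4 (0.133). For Bmi1 they were Tgfa (0.149) and Bach2 (0.169), and for Cbx2 Ephb2 (0.187) and Trnp1 (0.200). Ring1 had the most distant neighbours, Kctd15 (0.308) and Jade2 (0.387). Kctd15, the nearer, had peaks in all 8 lists, unlike Ring1, and Jade2 had peaks in the treated lists alone.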

How the data were processed

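Suz12 ChIP-seq was analysed in 8 of 20 samples. Per the submitters' processing notes, the authors used Bowtie and MACS with mm10 (GRCm38), and no versions are given. The deposited peak lists hold 1 library each, without scores, and per the file headers raw read counts over their peaks in 13 columns. These counts are whole numbers without normalization. Column names placed 8 columns in the 4 groups and the other 5 were not used. Triptolide columns carry replicate numbers, and DRB columns are named by index.

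The members and gene lists were chosen with earlier results of these data known. Peaks overlapping by 1 bp were merged, and a region took the counts of its widest peak. Since the gene table has no strand, genes were matched within 1 kb of either end. The named genes are all 9 members and genes sharing their regions, for each member the 2 genes with the nearest profile (Gm and Rik symbols left out), and of both other PRC1 lists the 2 genes with the highest and the 2 with the lowest change. A result that the rule takes is not reported here. Phc3 and Kdm2b lie outside this rule, picked with their values already known.

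Counts were tested in edgeR 4.0.16 (R 4.3.3) by the quasi-likelihood test, over 4 groups, scaled by TMM and without a filter on low counts, with Benjamini-Hochberg adjustment over 11943 regions. Alternatives were DESeq2 1.42.0, library sizes from the sum of counts or from regions in all 8 lists, filterByExpr, another peak for a region's counts, fits of each drug alone, a replicate block, windows of 2.5 and 0.5 kb, wider peaks, a merge at 0.5 of the shorter peak, RefSeq start sites and leaving out each library. The test was run on simulated data with a small set of changed regions of random sign and no lane or series effect. That simulation does not check the choice of scaling. No library totals were used, so changes are relative, and intervals rest on 4 residual degrees of freedom before edgeR's sharing of information across regions.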

Additional observations from a re-analysis of the deposited data

How the results depend on the processing

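Member classes by peaks (4 in all 8 lists, 1 in treated lists alone, 4 in none) stood without any 1 list. Members with peaks in treated lists alone numbered 2 within 2.5 kb of an end or by RefSeq start sites (added after the data were seen), and 0 among peaks of at least 1357 bp. Among the 5 member regions at an end, 2 in place of 1 were higher over both drugs with the sum of counts or kept-region scaling, and 1 in place of 3 was lower with kept-region scaling. Without 1 library these numbers were 1 to 2 and 2 to 3. Of all regions, 39.0% were higher and 18.7% lower with the sum of counts, and 47.4% and 11.2% with kept-region scaling. Over all regions DRB calls went from 4452 to 2962 with the libraries of that drug alone, and the drug difference from 2 to 0 with kept-region scaling. Without 1 library, calls ranged from 2292 (without DRB 0 h TGACCA) to 4899 for DRB, from 5613 to 7315 for both drugs and from 0 to 7 for the drug difference. For triptolide they ranged from 2431 to 5946, with 2431 and 2486 without 9 h replicate 2 or 1 and 2982 and 3121 without 0 h replicate 1 or 2.

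Replicate numbers of the triptolide libraries share only a number by the labels. With the replicate block 7663 regions were called in place of 4918, and the deviations of replicate 1 at 0 h and 9 h correlated at r = 0.39 across regions. Among member regions the block added calls at Cbx6 (0.61) and at the narrow Bmi1 region (−1.14).

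Signs turned for the results below, only some of them at values near 0. The Bmi1 start region had 0.053 (sum of counts) and 0.19 (kept-region scaling) under DRB and 0.071 over both with kept-region scaling, and the region beyond Bmi1 had 0.014 under DRB with it. The inner Pcgf5 region had −0.014 under triptolide with counts of the peak of the largest sum. The drug difference was 0.063, 0.071 and 0.017 at Pcgf5 with the sum, kept-region scaling and DESeq2, and 0.0074 at Cbx8 with kept-region scaling. Without 1 library, Cbx2 ranged from −0.011 to 0.52 under DRB and from −0.058 to 0.22 under triptolide, the region inside Cbx2 from −0.050 to 0.43 under DRB, and the inner Pcgf5 region from −0.0077 to 0.093 under triptolide. The drug difference then ranged from −0.41 to 0.12 at Cbx2, −0.56 to 0.019 at Pcgf2, −0.15 to 0.21 at Pcgf5 and −0.21 to 0.54 at Ring1. The cause of these shifts was not tested. The fewest reads, 1323927, were in the DRB 0 h library ATCACG, and depth limits regions such as the narrow one at Bmi1, with 4 to 56 reads.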
